A study of Mus musculus with 6 samples.

Results

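Translation factors and aminoacyl-tRNA synthetases were followed in mouse skeletal muscle after electrical pacing. Members were the probes whose platform annotation gives exactly 1 gene symbol, where that symbol begins with Eif, Eef or Pabp, equals Etf1 or Gspt1, or is an aminoacyl-tRNA synthetase symbol. The rule used no measured value and found 92 probes of 47 genes, among 6609 probes of 3939 genes with exactly 1 symbol. By role there were 25 initiation factors, 4 regulators of initiation, 7 elongation and termination genes, 10 charging genes and Pabpn1, which binds poly(A) in the nucleus. No such probe carried the symbol Gspt1 or Eprs. The probes of Eef2, the translocation factor, of Eif5b and of the synthetase gene Iars2 each list another gene as well. None of these genes was analysed here.

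The study measured total RNA on 6 two-channel arrays, 1 per group. In 5 groups the mice carried an implanted pacer that stimulated the muscle for 3 h, and muscle was taken 0 h, 1 h, 3 h, 8 h or 24 h after stimulation ended. The sham mice carried a pacer that stayed inactive, with tissue collected to match the 0 h group, so that later differences from sham mix pacing with elapsed time. Every sample was set against the same control muscle RNA, called Pre. The labels used here do not state strain, sex, age, the muscle or the number of mice per RNA. A value is a log2 ratio to Pre, taken as sample over Pre, which is the likely reading since the dyes are not stated. No signal level was given, so neither the tissue identity nor the abundance of a gene could be checked.

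Protein synthesis begins when eIF2 brings the initiator tRNA to the small ribosomal subunit, eIF3 holds the complex together, and the eIF4 factors bind the mRNA cap and unwind the leader. Elongation factors then deliver charged tRNAs and move the ribosome, release factors end the chain, and the synthetases load each tRNA with its amino acid. In muscle, contraction and feeding act on this machinery largely through phosphorylation, including that of the eIF4E-binding proteins by mTORC1, which transcript levels do not show.

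The highest values stood on the 24 h array. Of 44 members measured there, 17 were at least 1.5-fold above Pre (38.6%, against 10.6% of all 3663 genes measured) and 1, Eif4e, was at least 1.5-fold below it (2.27%, against 6.85%). The 17 were 11 of 24 initiation factors, 1 of 4 regulators, 3 of 7 elongation and termination genes and 2 of 9 charging genes. At 2-fold the 24 h count was 4, all above Pre, which is 9.09% of members against 5.3% of all genes. Those were Eif4a1, Eif4a2, Eif4e3 and Eif4ebp1, each with 1 probe. When every array was scaled to one spread, Eif4a2 (0.97) and Eif4ebp1 (0.96) fell short and the count was 2 (against 3.14% of all genes). Among 18 members with 2 or more probes the count was 0 (against 4.9%). No group had a second array, so no p-value was computed. The only repeated measure was the spread between probes of one gene, with a pooled standard deviation (SD) of 0.45 in log2 units at 24 h against Pre and 0.52 at 24 h against sham.

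**Figure D1:**
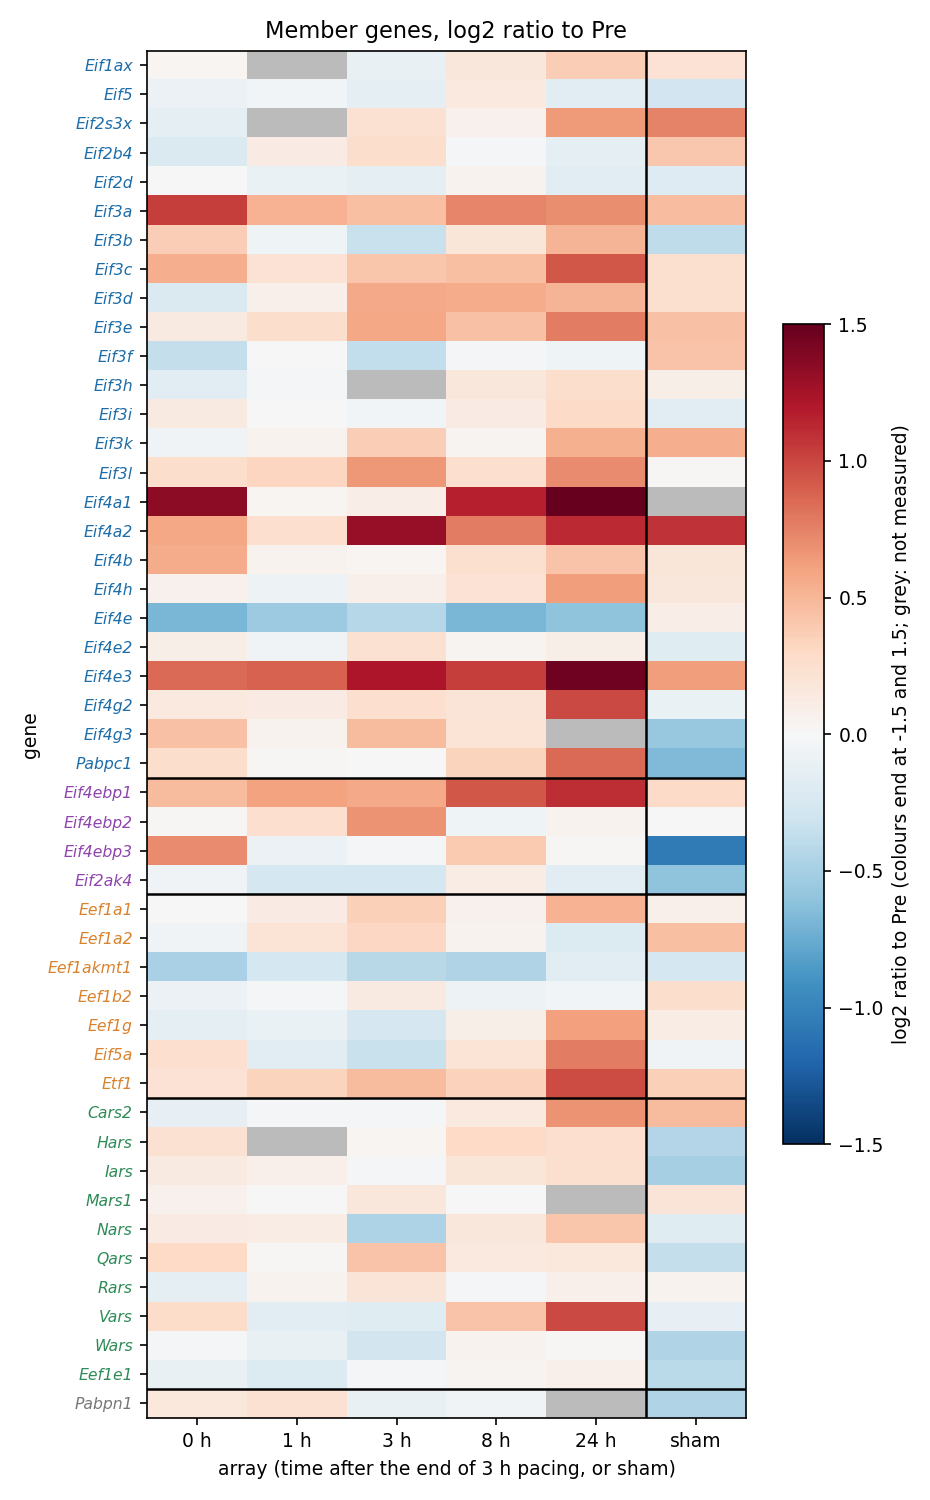
Log2 ratio to Pre of the 47 member genes (rows, ordered by role and separated by black lines) on the 6 arrays (columns, times after 3 h of pacing and then sham). Red is above Pre, blue is below and grey was not measured; Eif4a1 at 24 h (2.32) lies beyond the end of the colour scale, and Eif4e is below Pre on the 5 paced arrays.

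Initiation factors had a median log2 ratio to Pre of 0.13, 0.05, 0.23, 0.19 and 0.52 from 0 h to 24 h, against 0.17 in sham. The median of all genes lay between -0.03 and 0.01 on the 6 arrays. At 24 h 19 of 24 initiation factors were above Pre, where 51.2% of all genes were, and in sham 16 of 24 were, where 47.2% of all genes were. Elongation and termination genes had medians of -0.06, -0.03, 0.13, 0.06 and 0.52 in order of time, against 0.12 in sham. The 24 h median of these 7 genes hid a split, with 4 genes at 0.52 or more and 3 at -0.04 or less. Charging genes had medians of 0.10, -0.00, -0.01, 0.15 and 0.24, against -0.27 in sham. All 9 charging genes measured at 24 h were above Pre, though Wars (0.01), Rars (0.07) and Eef1e1 (0.08) only slightly. In sham 3 of 10 were above Pre and 7 below it, where 47.2% of all genes were above.

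**Figure D2:**
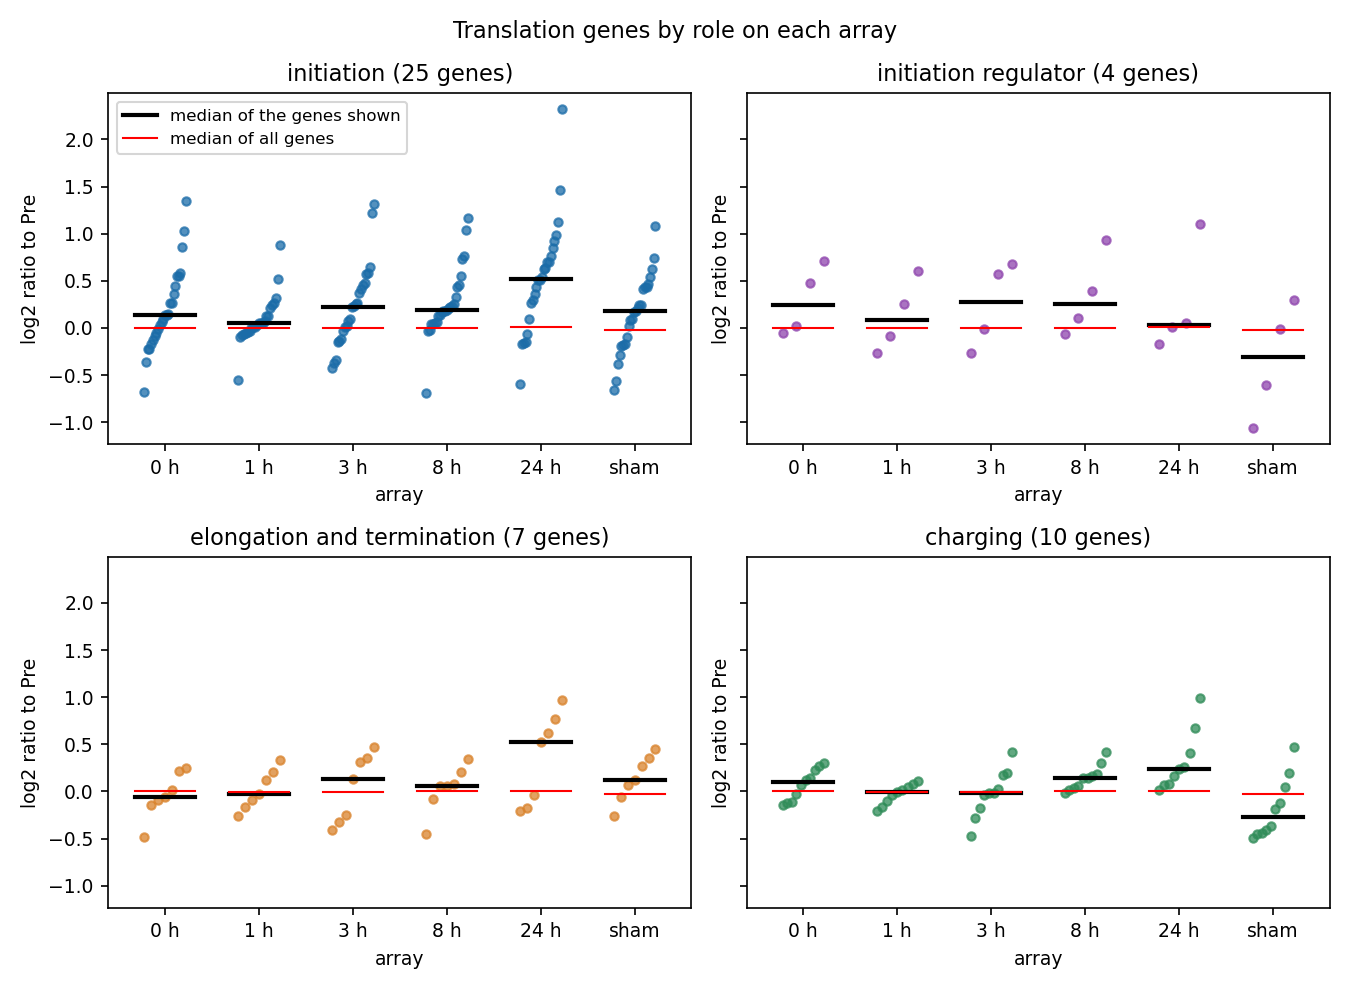
Log2 ratio to Pre of each member gene (points) on each array, in 4 panels by role; black bars are medians of the genes shown and red bars the median of all genes. The initiation and elongation medians are highest at 24 h (0.52 each), and the charging median is lowest in sham (-0.27).

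Members 2-fold from sham were also few. Over the 39 members with a value on all 6 arrays, the number at least 2-fold from sham was 1 at 0 h (2.56%, against 5.97% of 3180 genes), 0 at 1 h (against 1.32%), 1 at 3 h (2.56%, against 2.14%), 1 at 8 h (2.56%, against 3.24%) and 4 at 24 h (10.3%, against 5.82%). All of these members were higher than sham. Shares of 2.56% stand for a single gene, Eif4ebp3, so they carry no information on the group. At 24 h the 4 were Eif4ebp3, Eif4g2, Pabpc1 and Vars, and at 1.5-fold 13 members were higher (33.3%, against 12.3%) and 2, Eef1a2 and Eif4e, lower (5.13%, against 9.78%). After the same scaling, Pabpc1 was the 1 member 2-fold from sham at 24 h (against 2.42% of all genes). Against Pre, 2 members were called at 2-fold at 0 h (4.26%, against 2.11%), 0 at 1 h (against 0.77%), 2 at 3 h (4.35%, against 5.37%), 2 at 8 h (4.26%, against 2.22%) and 2 in sham (4.35%, against 4.07%). The comparisons with sham share the sham array and those with Pre share the Pre RNA, so agreement between times is not independent.

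Eif4e codes for the protein that binds the mRNA cap and is the target of the eIF4E-binding proteins. Its log2 ratio to Pre was -0.68, -0.55, -0.43, -0.69 and -0.60 from 0 h to 24 h, against 0.10 in sham. Each paced array was thus below both Pre and sham. How many of all genes had every paced value on the same side of the 1 sham value was not counted. Of its 2 probes, one read -0.76, -0.66, -0.06, -0.81 and -0.72 in order of time, against 0.34 in sham. The other read -0.61, -0.44, -0.80, -0.57 and -0.48, against -0.15 in sham. The difference from sham lay between -0.78 (0 h and 8 h) and -0.52 (3 h), and its probe SD from 0.18 at 3 h to 0.51 at 8 h. Eif4e was the 1 member at least 1.5-fold below Pre at 0 h (4.36% of all genes), 8 h (2.45%) and 24 h.

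2 relatives of Eif4e did not share its position. Eif4e3, a cap-binding relative with 1 probe, stood at 0.86, 0.88, 1.22, 1.03 and 1.46 from 0 h to 24 h, against 0.63 in sham. It was above Pre on every array and highest at 24 h, 2.75-fold above Pre, where it exceeded sham by 0.83. Eif4e2, which competes for the cap and represses translation, lay between -0.06 and 0.22 on the paced arrays, against -0.18 in sham.

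The eIF4A helicases unwind the mRNA leader, with help from eIF4B and eIF4H. Eif4a1 stood at 1.35, 0.03, 0.09, 1.17 and 2.32 in order of time, and its single probe was not measured in sham. The 24 h value, 4.99-fold above Pre, was the highest of any member on any array, but no difference from sham can be given on it. A probe annotated to Eif4a1 together with Snap47, which the rule left out, read otherwise, at -0.33 at 0 h and 1.40 at 24 h, against 1.90 in sham. Eif4a2, also with 1 probe, stood at 0.59, 0.25, 1.31, 0.77 and 1.12 in order of time, against 1.08 in sham. Its paced values thus lay on both sides of sham. A probe annotated to Eif4a2 together with Snora81, also left out by the rule, read 0.50 at 3 h and 0.25 at 24 h, against 0.47 in sham. Another such probe read -0.18 at 3 h and 0.57 at 24 h, against -0.16 in sham. Neither was 2-fold from Pre on any array. The 2 helicase genes are close relatives and spotted cDNA may bind both, so the family member is uncertain. Eif4b was at 0.55 at 0 h and 0.43 at 24 h and between 0.02 and 0.24 at the other times, against 0.18 in sham. Eif4h was at 0.63 at 24 h, against 0.17 in sham, but on the 1 probe measured on both arrays the difference was 0.18.

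Eif4g2 had the most probes, 9, and codes for an eIF4G relative that lacks the site for eIF4E and serves cap-independent initiation. As a mean over measured probes it stood at 0.15, 0.12, 0.25, 0.19 and 0.99 from 0 h to 24 h, against -0.10 in sham. The 2 probes without a 24 h value read -0.44 and -0.87 in sham. On the 7 probes measured on all arrays the values were 0.24, 0.26, 0.52, 0.26 and 0.99, against 0.07 in sham. The 24 h difference from sham on those probes was 0.92 with a probe SD of 0.62, just under 2-fold. At 24 h the 7 probes read between 0.65 and 1.31, and in sham between -0.91 and 0.44, so that a single low sham reading gave the widest difference, 2.09. Eif4g3, an eIF4G scaffold gene, stood at 0.44, 0.05, 0.48 and 0.21 from 0 h to 8 h, against -0.57 in sham, and was not measured at 24 h. The Eif4g3 sham value averages a probe measured in sham alone (-0.77) with the 1 probe measured on both, whose differences from sham were 0.81, 0.42, 0.84 and 0.58.

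Pabpc1, the cytoplasmic poly(A)-binding protein that joins the mRNA tail to eIF4G, had 1 probe. It stood at 0.27, 0.01, 0.01, 0.33 and 0.85 in order of time, against -0.66 in sham. All paced values were above the sham value, and the 24 h difference of 1.51, 2.85-fold, was the largest of any member at that time. Against Pre the same 24 h value was 1.80-fold, the rest of the difference being the low sham value. Pabpn1, the nuclear poly(A)-binding protein, lay between -0.11 and 0.23 from 0 h to 8 h, against -0.45 in sham.

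**Figure D3:**
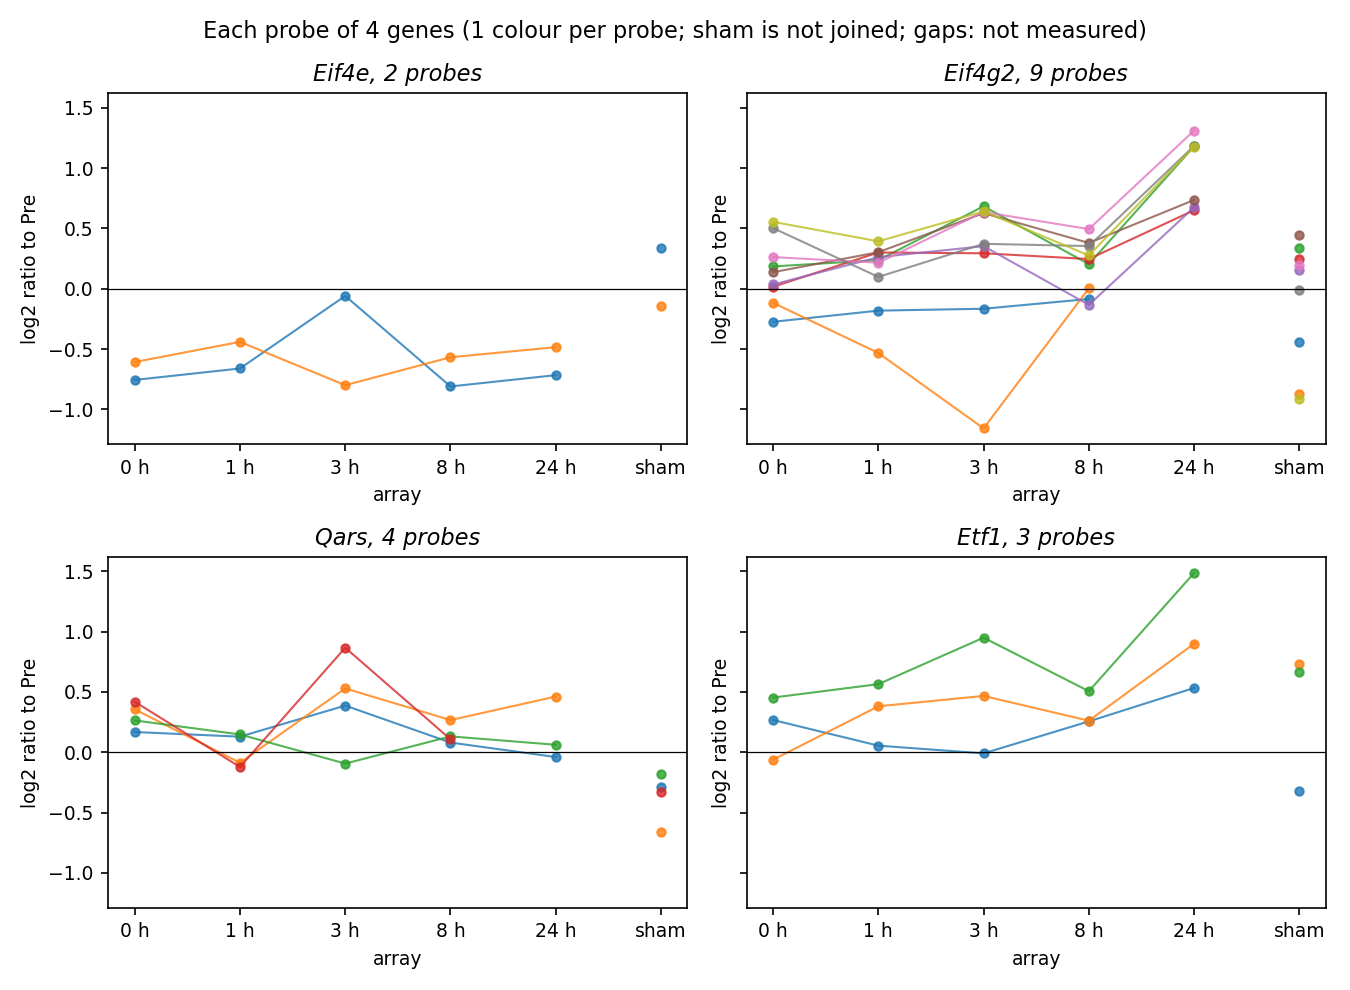
Log2 ratio to Pre of every probe of Eif4e (2), Eif4g2 (9), Qars (4) and Etf1 (3) on the paced arrays (joined points, by time) and in sham (single points at the right). Both Eif4e probes are below 0 on every paced array, and the 7 Eif4g2 probes measured at 24 h read from 0.65 to 1.31.

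The eIF4E-binding proteins are inhibitors that hold eIF4E away from eIF4G until they are phosphorylated. Eif4ebp1 stood at 0.47, 0.61, 0.57, 0.94 and 1.11 from 0 h to 24 h, against 0.29 in sham. It was above Pre and above sham at every time, and reached 2.15-fold above Pre at 24 h, on 1 probe. Eif4ebp3 stood at 0.71, -0.09, -0.01, 0.39 and 0.01, against -1.07 in sham. Its differences from sham, from 0.98 at 1 h to 1.77 at 0 h, therefore rest in large part on 1 low sham value of 1 probe. Eif4ebp2 stood at 0.02, 0.25, 0.68, -0.06 and 0.05, against -0.01 in sham, and its 3 probes read 1.35, 0.28 and 0.40 at 3 h. Eif2ak4, which codes for the kinase GCN2 that senses uncharged tRNA and phosphorylates eIF2, stood at -0.05, -0.27, -0.27, 0.11 and -0.17, against -0.60 in sham. Its difference from sham was 0.71 at 8 h (2 probes, probe SD 0.23).

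Subunits of eIF3, the large scaffold of initiation, were represented by 10 genes. Their median log2 ratio to Pre was 0.14, 0.06, 0.41, 0.22 and 0.52 from 0 h to 24 h, against 0.24 in sham. At 24 h 9 of 10 were above Pre (51.2% of all genes), and in sham 8 of 10 were (47.2% of all genes). Eif3c stood at 0.55, 0.21, 0.41, 0.45 and 0.93, against 0.24 in sham. The 24 h difference from sham was 0.69 on 2 probes that agreed (probe SD 0.02). Eif3e stood at 0.14, 0.26, 0.58, 0.43 and 0.77, against 0.43 in sham. On the 4 Eif3e probes measured on both arrays the 24 h difference was 0.22 with a probe SD of 0.51, within the probe spread.

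Other eIF3 subunits differed among themselves. Eif3a was at 1.03 at 0 h, 2.04-fold above Pre, and at 0.52, 0.45, 0.73 and 0.70 later, against 0.46 in sham. Eif3b stood at 0.36, -0.06, -0.34, 0.18 and 0.51, against -0.38 in sham, with probes that disagreed on the 24 h difference of 0.89 (probe SD 1.00). Eif3l was at 0.65 at 3 h and 0.70 at 24 h, against 0.02 in sham, but its 2 probes at 24 h read 1.29 and 0.12 and disagreed on the difference from sham (0.63, probe SD 0.98). Eif3f stood lower, at -0.36, 0.00, -0.37, -0.02 and -0.06, against 0.43 in sham, so that every paced value was below the sham value. Eif3k was at 0.54 both at 24 h and in sham. The values of Eif3d, Eif3h and Eif3i on the paced arrays lay between -0.22 and 0.57, but Eif3d means at different times cover different probes. Between gene means Eif3d differed from sham by -0.47 at 0 h and 0.27 at 24 h. On probes measured on both arrays the differences were 0.08 (1 probe) and 0.78 (2 probes, probe SD 0.27).

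The genes that bring the initiator tRNA did not stand together. Eif2s3x, the X-linked gene of the eIF2 gamma subunit, stood at -0.13 at 0 h and, from 3 h to 24 h, at 0.23, 0.06 and 0.64, against 0.74 in sham. Eif2b4, a subunit of the exchange factor that recharges eIF2 with GTP, stood at -0.22, 0.12, 0.26, -0.03 and -0.15, against 0.41 in sham, lower than sham at every time. Eif2d, which can place tRNA without eIF2, lay between -0.16 and 0.06 on the paced arrays. Eif1ax and Eif5, which act in scanning and start selection, lay between -0.18 and 0.36, and the 3 Eif5 probes spread widely in sham (probe SD 0.90).

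The 2 isoforms of eEF1A, which delivers charged tRNAs to the ribosome, lay on opposite sides of Pre at 24 h. Eef1a2, the isoform of adult muscle and neurons, stood at -0.06, 0.21, 0.31, 0.06 and -0.21 from 0 h to 24 h, against 0.45 in sham. Eef1a1, the broadly expressed isoform, stood at 0.01, 0.13, 0.36, 0.06 and 0.52, against 0.07 in sham. At 24 h the difference from sham was -0.66 for Eef1a2 and 0.45 for Eef1a1, with a probe SD of 0.03 over 2 probes for each. The Eef1a2 probes agreed on that difference but not on the ratio to Pre, at 0.14 and -0.56. Since the isoforms are closely related, a spot of either may also bind the other.

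Among the exchange factor subunits that reload eEF1A, Eef1g (1 probe) stood at -0.15, -0.09, -0.25, 0.08 and 0.62, against 0.12 in sham. Eef1b2 stood at -0.09, -0.03, 0.13, -0.08 and -0.04, against 0.27 in sham. Its 4 probes, 2 of which carry the same sequence record, gave a 24 h difference of -0.31 with a probe SD of 0.63. Eef1akmt1, a methyltransferase that modifies eEF1A, was below Pre on every array, at -0.49, -0.26, -0.41, -0.45 and -0.18, against -0.26 in sham.

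Eif5a, which helps ribosomes through sequences that stall them, stood at 0.25, -0.16, -0.33, 0.21 and 0.76, against -0.06 in sham. Only 1 of its 2 probes was measured at 24 h, and on that probe the difference from sham was 1.15, in place of 0.82 between gene means. Etf1, the release factor that reads stop codons, stood at 0.22, 0.33, 0.47, 0.34 and 0.97, against 0.36 in sham. All 3 Etf1 probes were highest at 24 h, and the difference from sham was 0.61 with a probe SD of 0.39.

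**Figure D4:**
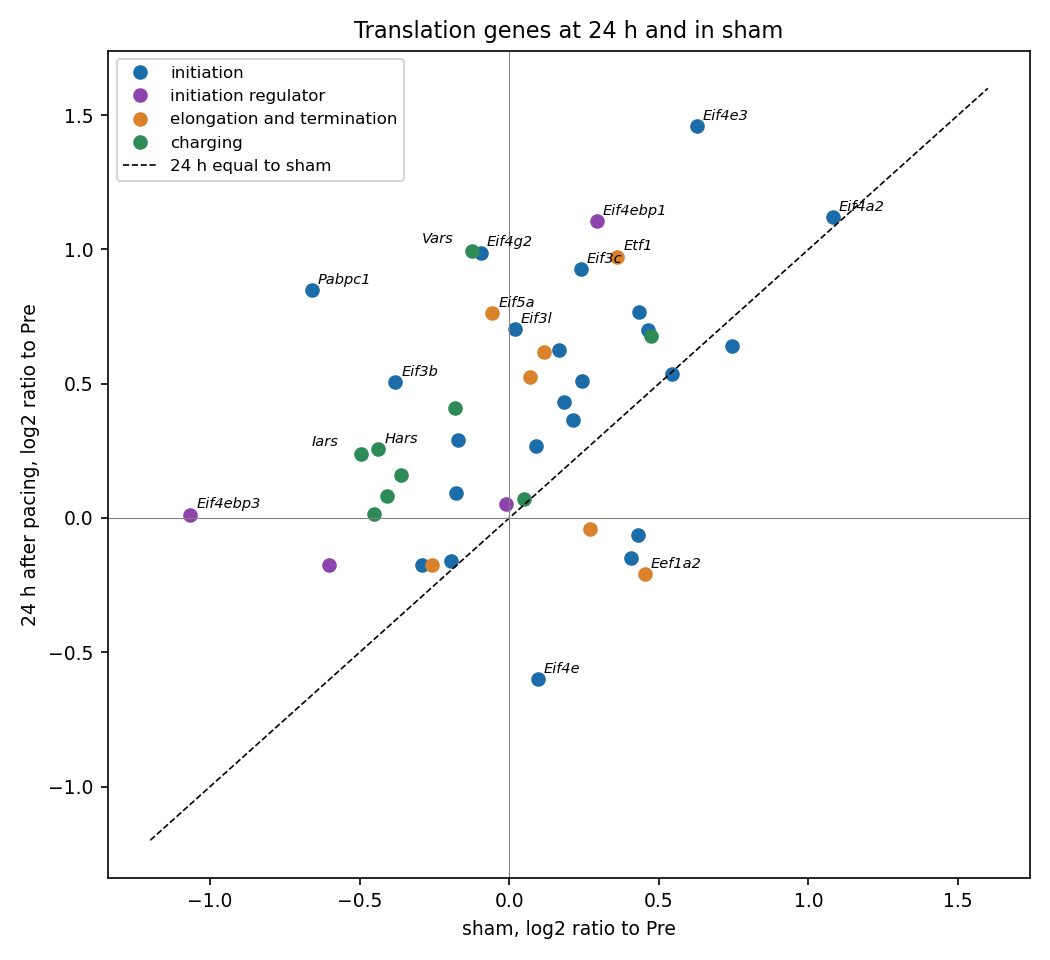
Log2 ratio to Pre at 24 h (vertical) against sham (horizontal) for members measured on both arrays, coloured by role; points above the dashed line are higher at 24 h than in sham. Pabpc1 (0.85 at 24 h, -0.66 in sham) lies far above the line and Eif4e (-0.60 at 24 h, 0.10 in sham) below it.

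Of 8 cytosolic synthetase genes, 6 were below Pre in sham, and all 7 measured at 24 h were above it. Of all genes, 47.2% were above Pre in sham and 51.2% at 24 h. Qars, the glutaminyl-tRNA synthetase, had 4 probes and stood at 0.30, 0.02, 0.42, 0.15 and 0.16 from 0 h to 24 h, against -0.36 in sham. All 4 Qars probes were below Pre in sham, between -0.66 and -0.18, and the difference at 0 h was 0.66 (probe SD 0.27). Iars, the isoleucyl enzyme, stood at 0.14, 0.07, -0.03, 0.18 and 0.24, against -0.49 in sham. Hars, the histidyl enzyme, was at 0.23 at 0 h and at 0.03, 0.30 and 0.26 from 3 h to 24 h, against -0.44 in sham. For Iars, Hars and Qars every measured paced value was above the 1 sham value, and the same held for Wars and Eef1e1, described below. None of these genes was 1.5-fold from Pre on any paced array. The share of all genes with every paced value on the same side of sham was not computed.

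Vars, the valyl enzyme, was the 1 cytosolic synthetase gene that was 1.5-fold from Pre on any array. It stood at 0.27, -0.16, -0.18, 0.42 and 0.99, against -0.12 in sham, which at 24 h was 1.99-fold above Pre and 2.17-fold above sham on 1 probe. Nars, the asparaginyl enzyme, stood at 0.12, 0.11, -0.47, 0.17 and 0.41, against -0.18 in sham. Wars, the tryptophanyl enzyme, stood at -0.03, -0.11, -0.28, 0.06 and 0.01, against -0.45 in sham. On the 1 Wars probe measured on both arrays the 24 h difference was 0.19. Rars, the arginyl enzyme, stood at -0.15, 0.05, 0.19, -0.02 and 0.07, against 0.05 in sham, with paced values on both sides of sham. Mars1, the methionyl enzyme, lay between -0.00 and 0.17 from 0 h to 8 h, against 0.20 in sham.

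Cars2, the mitochondrial cysteinyl-tRNA synthetase, was above Pre in sham, where 6 of 8 cytosolic synthetase genes were below it. Its values were -0.13, -0.03, -0.02, 0.15 and 0.68, against 0.47 in sham. Eef1e1, which codes for a scaffold of the multisynthetase complex, stood at -0.12, -0.20, -0.01, 0.04 and 0.08, against -0.41 in sham. Against sham the charging median was 0.35, 0.25, 0.16, 0.48 and 0.51 in order of time over 8 genes, where the median of all genes was 0.04, 0.03, 0.02, 0.06 and 0.08. Over the same arrays the 20 initiation factors had medians of 0.22, 0.02, 0.14, 0.23 and 0.27, and the 7 elongation and termination genes -0.23, -0.10, -0.14, -0.03 and 0.45.

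Cytosolic ribosomal protein genes, the other large part of this machinery, had medians against sham of -0.28, -0.26, -0.08, -0.04 and 0.20 over 56 genes. Against Pre they stood at 0.09, 0.11, 0.25, 0.27 and 0.54, against 0.33 in sham. The ribosomal genes were thus high in sham where the synthetase genes were low, and both groups were above Pre at 24 h. The difference between the groups was not tested.

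Of 49 related translation genes listed for comparison, 20 had a value on at least 1 array. None of the 14 with a value on all 6 arrays was 2-fold from sham at any time (background 1.32% to 5.97%), and so few genes carry little information at such shares. Among those not measured on every array, Ddit4 was 1.81 above sham at 0 h and Mtrf1 1.17 above sham at 8 h, each on 1 probe. Atf4, the transcription factor gene whose mRNA is translated when eIF2 is phosphorylated and which drives synthetase genes, had 5 probes. It stood at 1.41, 1.15, 1.68, 1.84 and 1.53 from 0 h to 24 h, against 1.00 in sham, with a probe SD between 0.19 at 8 h and 0.55 at 3 h. Its ratio was thus near 2-fold above Pre in sham as well, and the paced arrays were 0.15 to 0.84 above sham. Ddit4, an inhibitor of mTORC1 with 1 probe, read 2.27 at 0 h and later 0.98 (3 h) and 1.02 (8 h), against 0.46 in sham, with no value at 1 h or 24 h. Ddit3, a stress gene induced through Atf4, was not measured at 0 h and lay between -1.04 and -0.05 on the paced arrays, against -0.51 in sham.

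Promoter windows were examined because many of these genes are known targets of Myc-type factors, which bind the E-box CACGTG, and of Atf4, which binds amino acid response elements. RefSeq windows on GRCm38.p6, from 250 bases before to 50 bases after the start, were matched for 31 of 47 members. The letters CACGTG, which read the same on both strands, were found for 8 of 31 members (25.8%), against 8.09% of 27025 genes in the table. The 8 were Eif3a, Eif3f, Eif3k, Eif4a1, Eif4e, Eif4h, Eif5a and Iars, which include genes high, level and low at 24 h. The response element core TGATGNAA, searched on both strands, was found for Eif2s3x and Iars, 2 of 31 (6.45%, against 4.51%). The cAMP response element TGACGTCA was found for 0 of 31 (against 2.03%). A gene counted if any of its windows matched, and 5 members had more than 1 window. The genes in the table were not limited to those on the arrays. A match is a run of letters and not a shown binding site.

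The 250 bases before the start are printed for 3 members, 5′ to 3′ on the gene's strand, with each CACGTG in capitals. Eif4e was chosen as a member below Pre on every paced array, Eif4a1 as the member furthest above it, and Iars as a synthetase low in sham. The windows are chr3:138527018-138527267 on the plus strand for Eif4e, chr11:69672424-69672673 on the minus strand for Eif4a1 and chr13:49681880-49682129 on the plus strand for Iars.
Eif4e: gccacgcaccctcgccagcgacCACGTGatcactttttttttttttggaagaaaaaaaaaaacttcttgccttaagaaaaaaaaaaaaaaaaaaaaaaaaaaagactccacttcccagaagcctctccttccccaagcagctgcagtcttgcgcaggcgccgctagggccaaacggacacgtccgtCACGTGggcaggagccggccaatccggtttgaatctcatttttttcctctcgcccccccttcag
Eif4a1: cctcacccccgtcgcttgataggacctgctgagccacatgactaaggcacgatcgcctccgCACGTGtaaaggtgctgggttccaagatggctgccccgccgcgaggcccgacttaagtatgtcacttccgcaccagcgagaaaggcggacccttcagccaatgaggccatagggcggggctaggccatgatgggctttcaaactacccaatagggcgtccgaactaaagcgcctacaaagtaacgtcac
Iars: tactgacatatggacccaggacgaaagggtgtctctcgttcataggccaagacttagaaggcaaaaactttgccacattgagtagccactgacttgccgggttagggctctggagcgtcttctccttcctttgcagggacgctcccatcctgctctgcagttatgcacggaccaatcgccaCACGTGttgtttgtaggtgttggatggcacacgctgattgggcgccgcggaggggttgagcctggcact
The printed Eif4e window is 1 of 2 RefSeq starts, and the other holds no CACGTG. The printed one holds 2 E-boxes, whose first bases lie at -228 and -64 from the start, Eif4a1 holds 1 at -189 and Iars 1 at -69. At 24 h Eif4e stood at -0.60, Eif4a1 at 2.32 on 1 probe and Iars at 0.24. Whether the letters go with expression was not tested.

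Markers of other cell types and the spread of the arrays also differed between groups. The share of probes measured ranged from 87.3% at 0 h to 95.2% at 8 h, and sham was at 93.9%. The robust SD of the ratios was 0.293, 0.176, 0.445, 0.242 and 0.400 in order of time, against 0.495 in sham, the widest of the 6. Sham alone had empty cells (485). It also had the most values repeated within runs of probes, 154, against 8 or fewer on each paced array. Any difference from sham carries the sham array's own deviations. Of 6 fibroblast and matrix markers 4 were measured, with a median of -0.67 at 24 h against sham (from -0.91 to 0.01). The 2 adipocyte markers measured of 5 stood at -0.52 and -0.33, and the erythroid gene Hba-a1 at -0.44. The 3 endothelial and smooth muscle markers measured of 6 had a median of 0.11 (from -0.70 to 0.16). The 2 leukocyte markers measured at 24 h, of 8 listed, differed. Lyz2 stood at 0.05 and Ptprc, which had no 3 h value, at -0.33. The 6 skeletal muscle markers on all 6 arrays, of 9 listed, had a median of 0.05 (from -0.27 for Pygm to 0.47 for Myh4). Whether cell makeup contributed to the values of the translation genes was not tested, and in bulk muscle fewer cells of a type and less RNA per cell cannot be told apart.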

How the data were processed

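Values came from 1 deposited table of 6 two-channel arrays with 13872 probes. The values deposited by the authors are ratios of each sample to Pre, per the labels, on a log10 scale read from their rounding. The dyes, the background correction, the normalisation and the base are not given in the sources used here. Zeros (within 1e-10) and values shared within runs of 289 probes were set missing, the rest converted to log2 and centred on each array's median. A gene is the mean of its measured probes that carry exactly 1 symbol in the platform annotation; 284 probes with several symbols and 6979 with none were left out. The main counts, shares and medians of differences from sham used the 3180 genes measured on all 6 arrays. Differences of single genes were also given where another array had no value, and some used only probes measured on both arrays. A call means 2-fold; no test was possible with 1 array per group. Roles were assigned by hand. Members and lists were chosen with earlier results of these data known. Values were given in full for members called on any array, those with 3 or more probes on all 6 arrays, and the 3 highest and 3 lowest of each role by mean difference from sham, and for other members where space allowed. Of 10 alternatives, 2 were chosen after seeing the data. The code (python 3.11.15, pandas 2.3.3, numpy 2.4.6) was tested on simulated data.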

Additional observations from a re-analysis of the deposited data

How the results depend on the processing

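No paired analysis was possible because each group has 1 array, and leaving out a replicate was impossible for the same reason. The number of arrays limits the precision, sham was the only array with no pacing, and 24 members rest on 1 probe. Role medians moved by less than the pooled probe SD of their comparison under every alternative except the restriction to genes with 2 or more probes. That SD was 0.23 to 0.53, more than the size of most medians, so the criterion is loose. In sign, 1 median changed with zeros and shared values kept, 1 under scaling, 1 under centring by runs and 1 with probes on all 6 arrays. With the median of probes 2 changed sign. The main values of these medians were at most 0.033 in size. Under the restriction to genes with 2 or more probes 3 changed sign. The elongation and termination median against Pre at 24 h then stood at -0.042, not 0.52, and the charging median against sham at 3 h was 0.78 (1 gene). Under that restriction the members 2-fold from Pre numbered 0 on each of the 6 arrays, and those 2-fold from sham 0 from 0 h to 8 h and 1, Eif4g2, at 24 h. When every array was scaled to one spread, the counts against Pre from 1 h to 24 h were 4, 1, 5 and 2, with 0 in sham (all genes 3.53%, 1.76%, 4.6%, 3.14% and 0.886%), and those against sham were 2, 0, 4 and 1 (2.45%, 0.818%, 3.81% and 2.42%); 24 h then no longer had the highest count. With probes on all 6 arrays alone, the counts were 1 against Pre at 0 h, 1 against Pre at 8 h and 2 against sham at 3 h. At 1.5-fold the counts in either direction against Pre were 6, 2, 4, 6 and 18 in order of time and 6 in sham, and against sham 10, 4, 7, 6 and 15. The shares of all genes were 9.84%, 2.71%, 18.2%, 6.56%, 17.4% and 19.9% against Pre and 23.6%, 11.1%, 10.8%, 17.6% and 22.1% against sham, so the share of members was below that of all genes at 3 h and in sham (8.7% and 13%) against Pre, and at 1 h and 8 h (10.3% and 15.4%) against sham. With genes measured on both arrays, chosen after seeing the data, the counts against sham were 2 at 0 h and 2 at 3 h, where Eif4g3 was added through a probe measured in sham alone (0.81 and 0.84 on the shared probe). Of 19 called gene values, 9 were lost under scaling alone: Eif4ebp3 at 3 h (0.74) and 24 h (0.76) against sham and in sham (-0.75), Eif4a2 at 24 h (0.97) and in sham (0.76), Eif4e3 at 3 h (0.95), Eif4ebp1 at 24 h (0.96), and Eif4g2 (0.92) and Vars (0.95) at 24 h against sham. Eif4g2 at 24 h against sham was also under 2-fold with zeros and shared values kept (0.86) and on shared probes (0.92). Of the 126 alternative values of the called genes, 114 were still 2-fold and 0 changed sign. The causes of these changes were not tested beyond the fewer genes or probes that each restriction leaves.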
